A study of Mus musculus with 9 samples.

Results

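The GTPases of the immunity-associated protein (GIMAP) family were followed across splenic CD4+ T cells kept in medium, activated through the TCR, or given the same stimulus together with TRAIL. The family was taken as the 8 genes whose symbols are Gimap1, Gimap3, Gimap4, Gimap5, Gimap6, Gimap7, Gimap8 and Gimap9 in the expression table, out of 55487 genes listed, and each symbol matched 1 row. Gimap6 and Gimap9 were lower in activated cells than in medium and highest when TRAIL was added to the same stimulus. Gimap7 and Gimap5 were highest in activated cells. Both read lowest with TRAIL, but below medium this did not pass for Gimap5 on the TPM as deposited and passed for Gimap7 in only 14 of 21 alternatives. All libraries came from wild-type (Trail-r+/+) C57BL/6 female mice aged 6 to 7 weeks, from CD4+ T cells purified by negative selection, in 3 groups of 3 libraries. One group stayed in medium for a time that the labels do not give, the second received anti-CD3 Ab at 3 µg/ml with anti-CD28 Ab at 2 µg/ml for 24 h, and the last received the same Abs together with TRAIL at 10 µg/ml for 24 h. The Abs act on the TCR complex and on the costimulatory receptor CD28, and TRAIL is a ligand of the TNF superfamily that binds TRAIL-R. Neither TRAIL-R-knockout cells nor cells exposed to TRAIL alone were analysed here.

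GIMAP proteins are small GTPases found mostly in lymphocytes, and most are anchored to intracellular membranes such as those of mitochondria, the endoplasmic reticulum, lysosomes and lipid droplets. They bind guanine nucleotides through a G domain related to that of septins and dynamins and assemble into dimers or scaffolds on membranes. Several are needed for lymphocytes to survive in the periphery, and loss of GIMAP5 causes a severe lack of T cells in rats and mice.

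The values were TPM (transcript abundance per gene length, scaled so that every library adds up to 1000000), which lets levels be set side by side between genes of a library. All 8 members reached 1 TPM in all 9 libraries, with values from 65.8 to 1734 TPM, and all entered the test. Read totals cannot be recovered from TPM, so depth is unknown. The SD of a mean rests on its 3 libraries. Each gene has 1 spread in the test, taken from all 9 libraries and drawn towards the trend over all genes tested. The labels do not state that the libraries of a group came from separate mice. The p-values therefore measure only the spread between these libraries, which may be technical. Of all genes, 13691 to 14909 per library reached 1 TPM, and the correlation of log2(TPM + 1) across genes, which are not independent replicates, was 0.983 to 0.993 within groups.

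The names of the groups give the stimulus each received, and genes known to be induced through the TCR were read to check them. Of 14 such genes, 10 rose and 1 fell on activation, 5 were higher and 8 lower with TRAIL against activated cells, and 8 were higher and 1 lower for TRAIL-treated against medium cells. Over all genes, 28.8% and 40%, 33.5% and 33.5%, and 8.03% and 24.6% passed as higher and lower in these comparisons. Tnfrsf4 (OX40) stood at 50.2 ± 2.58 TPM (SD, n = 3 here and for each mean below) in medium, 1074 ± 46.9 TPM in activated cells and 85.4 ± 2.21 TPM with TRAIL, and Myc at 142 ± 15.1, 654 ± 59.7 and 196 ± 23.1 TPM. Il2ra, which codes for CD25, read 24.0 ± 1.96, 868.2 ± 126 and 23.2 ± 2.25 TPM, and its difference between TRAIL-treated and medium cells did not pass (log2 fold change -0.05, limma adjusted p = 0.777). Tnfrsf9 (4-1BB), at 23.8 ± 1.63, 337 ± 10.2 and 23.5 ± 3.47 TPM, did not pass between those groups either (-0.03, limma adjusted p = 0.872). Other genes of the list had their highest mean with TRAIL. Nr4a1, an immediate early gene, read 177 ± 19.0, 215 ± 21.1 and 1926 ± 48.6 TPM, and Cd69 448 ± 59.9, 380.1 ± 12.4 and 733 ± 127.8 TPM. The cells given the Abs with TRAIL are therefore called TRAIL-treated here by what they received, and not by these markers.

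The 8 genes lie side by side on mouse chromosome 6 (GRCm38), from 48647234 to 48770851, a stretch of 124 kb that holds 13 listed genes. Their order is Gimap8, Gimap9, Gimap4, Gimap6, Gimap7, Gimap1, Gimap5 and Gimap3. Gimap6 (48701582 to 48708225) and Gimap3 (48764464 to 48770851) are transcribed from the minus strand and the others from the plus strand. Gimap8 (48647234 to 48660875) covers 13642 bp and Gimap9 (48676129 to 48679114) covers 2986 bp. Gimap4 spans 48684549 to 48692060, Gimap7 48718621 to 48724636, Gimap1 48739054 to 48743795 and Gimap5 48746197 to 48754210. Members share exons with 2 other annotated genes. Gm28053, a plus-strand readthrough gene (48718607 to 48752644), shares 81 exon bases with Gimap7, 198 with Gimap1 and 153 with Gimap5, and Gimap1os, on the minus strand, covers 1107 exon bases, or 36.0%, of Gimap1. Because the strand setting of the counting was not given in the sources used here, reads of Gimap1 and Gimap1os cannot be told apart, and the Gimap1 values are uncertain for that reason. Of all stretches of 100 bases in the annotated transcripts, 31.4% of those in Gimap1 occurred in another gene as well, compared with 1.7% in Gimap3, 2.3% in Gimap5 and 0.0% in each of the other members.

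The sequences upstream of the starts of Gimap6, Gimap9, Gimap7 and Gimap5 are shown because these 4 genes gave the opposed patterns on which the results turn. Each is the 250 bases before the start site that RefSeq gives on GRCm38.p6, written 5′ to 3′ on the strand of the gene, and capitals mark the letters GGAAGT or their reverse complement, a core recognised by ETS factors.
Gimap6, chr6:48708245-48708494, minus strand: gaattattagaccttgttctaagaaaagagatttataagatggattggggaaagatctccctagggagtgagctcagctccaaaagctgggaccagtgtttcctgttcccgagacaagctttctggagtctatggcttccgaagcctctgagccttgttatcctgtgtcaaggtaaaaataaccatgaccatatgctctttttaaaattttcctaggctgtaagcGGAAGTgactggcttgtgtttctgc
Gimap9, chr6:48675885-48676134, plus strand: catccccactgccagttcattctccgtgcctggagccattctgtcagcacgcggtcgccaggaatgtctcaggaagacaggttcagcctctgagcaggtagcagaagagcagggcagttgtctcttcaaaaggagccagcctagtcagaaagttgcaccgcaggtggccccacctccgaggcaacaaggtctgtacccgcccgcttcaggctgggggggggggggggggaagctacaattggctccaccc
Gimap7, chr6:48718371-48718620, plus strand: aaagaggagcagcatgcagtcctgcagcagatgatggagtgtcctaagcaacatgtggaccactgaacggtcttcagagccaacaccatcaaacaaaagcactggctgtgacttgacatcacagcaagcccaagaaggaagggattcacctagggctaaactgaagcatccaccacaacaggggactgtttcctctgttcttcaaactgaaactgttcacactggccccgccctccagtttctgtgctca
Gimap5, chr6:48745947-48746196, plus strand: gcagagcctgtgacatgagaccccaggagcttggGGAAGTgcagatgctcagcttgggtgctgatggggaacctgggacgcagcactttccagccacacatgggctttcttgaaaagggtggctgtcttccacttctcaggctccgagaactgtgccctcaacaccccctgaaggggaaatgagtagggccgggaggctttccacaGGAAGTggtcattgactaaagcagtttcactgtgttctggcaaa
GGAAGT was found once upstream of Gimap6, at position -25 counted from the start site, and at 2 places upstream of Gimap5. These 2 members move in opposite directions, and the upstream windows of Gimap9 and Gimap7 hold no match. Over all 32851 upstream windows of this length, 19.7% held GGAAGT on either strand. TGTGGT, a core recognised by RUNX factors, was found upstream of Gimap1, Gimap4 and Gimap7 and in 14% of all windows. GGAAAA, a core recognised by NFAT factors that shares its first letters with GGAAGT, was found upstream of Gimap1, Gimap3 and Gimap6 and in 20.4% of all windows. CACCC, recognised by KLF factors, was found upstream of Gimap3, Gimap4, Gimap5, Gimap8 and Gimap9 and in 52% of windows. GTAAACA, a forkhead core of FOXO factors, was found upstream of Gimap3 and in 3.17% of windows, and CTTTGA, recognised by TCF1 and LEF1, was found upstream of 0 members and in 13.8% of windows. These are matches of letters on both strands and not binding sites.

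In medium, Gimap6 was the most abundant member at 1149 ± 76.4 TPM, followed by Gimap4 at 921 ± 66.2, Gimap3 at 687 ± 52.6, Gimap8 at 379 ± 9.35, Gimap1 at 263 ± 8.43 and Gimap9 at 230.4 ± 17.2 TPM. Gimap5 at 98.4 ± 1.49 TPM and Gimap7 at 88.2 ± 11.3 TPM were the least abundant, and these were the only neighbours in this order whose libraries overlapped. Among all genes listed, Gimap6 ranked 92nd by mean TPM in medium and Gimap7 ranked 2022nd. In activated cells Gimap6 and Gimap4 overlapped at the top of the order, and Gimap8 and Gimap9 overlapped lower down. With TRAIL, Gimap6 stood alone at the top and Gimap7 at the bottom, Gimap9 overlapped Gimap8, and Gimap8 overlapped Gimap1. Gimap6 ranked 196th in activated cells and 75th with TRAIL, and Gimap7 ranked 1115th and 2489th.

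**Figure D1:**
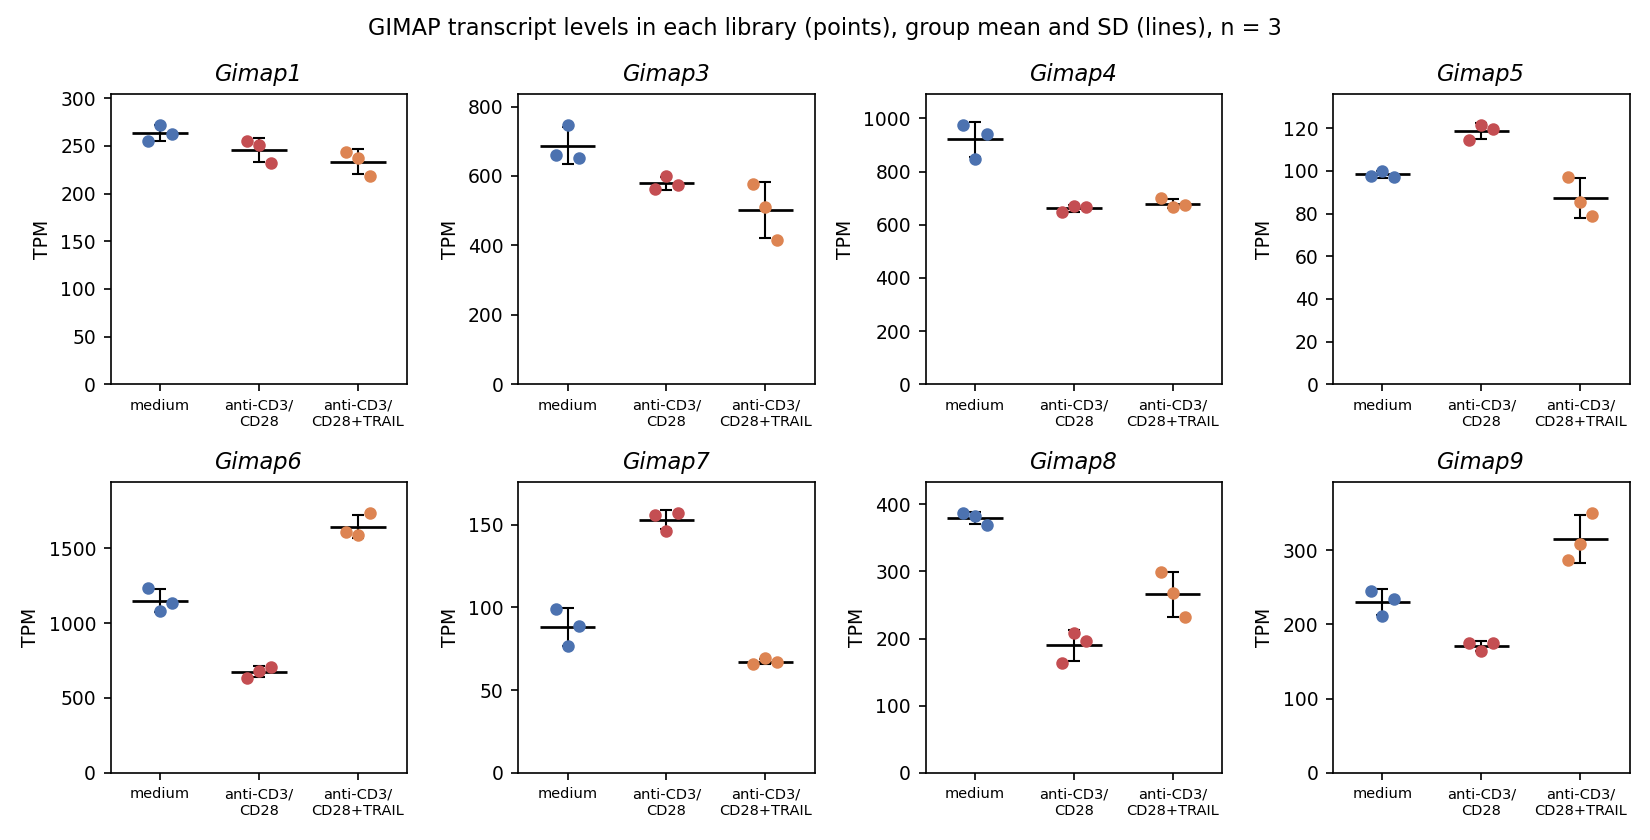
TPM (vertical axis, from 0) of each GIMAP gene in each library (points) by group, with horizontal lines at the group mean and error bars of 1 SD (n = 3). Gimap6 and Gimap9 are lowest in activated cells and highest with TRAIL, Gimap7 and Gimap5 are highest in activated cells, with Gimap5 in TRAIL-treated library 1 close to the medium libraries, and the Gimap1 groups lie close together, between 219 and 272 TPM.

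Differences were tested with limma on log2(TPM + 1). One fit of all 9 libraries covered the 15536 genes with 3 or more libraries at 1 TPM or above. A gene passed at a Benjamini-Hochberg adjusted p under 0.05, and was called when its log2 fold change was also at least 1 in size. Fold changes and their standard errors (SE) are on the log2(TPM + 1) scale. In bulk libraries such as these, fewer cells of a type and less RNA per cell cannot be told apart.

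Gimap6, which binds the autophagy protein GABARAPL2 and takes part in autophagy in lymphocytes, gave the largest difference of the family on the TPM as deposited, whereas Gimap7 did when libraries were centred on T cell markers (-1.35, against 1.10 for Gimap6). Its levels were 1232, 1081 and 1135 TPM in the 3 medium libraries, 636, 683 and 709.6 TPM in activated cells and 1608, 1589.8 and 1734 TPM with TRAIL. All 3 TRAIL-treated libraries lay above every medium library, all 3 activated libraries lay below, and no groups overlapped. The level fell on activation, with a log2 fold change of -0.76 (SE 0.09, limma adjusted p = 3.9e-05). It was higher with TRAIL than in cells activated without it, by 1.28 on the log2 scale (95% interval 1.07 to 1.49, limma adjusted p = 8.5e-07), or 2.43-fold. Against medium it was higher by 0.52 (SE 0.09, limma adjusted p = 2.8e-03), a difference that did not pass under quantile normalization, at 0.22 (adjusted p = 0.0794).

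Gimap9, a short neighbour on the plus strand, followed the same order. It read 245.5, 212 and 234 TPM in medium, 175.5, 164 and 175 TPM in activated cells and 287, 308 and 350.1 TPM with TRAIL. The groups did not overlap, and the TRAIL-treated libraries were again the highest. The log2 fold change was -0.42 (SE 0.10, limma adjusted p = 3.6e-03) on activation, 0.87 (SE 0.10, adjusted p = 2.6e-05) with TRAIL against activated cells and 0.45 (SE 0.10, adjusted p = 8.0e-03) against medium. The fall on activation did not pass under median-of-ratios scaling, at -0.27 (adjusted p = 0.107).

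Gimap7, a member that hydrolyses GTP when it forms dimers, moved against Gimap6. It read 99.1, 76.5 and 89.0 TPM in medium, 156, 146 and 157 TPM in activated cells and 65.8, 69.2 and 66.7 TPM with TRAIL. The activated libraries were the highest and the TRAIL-treated libraries the lowest, with no overlap between groups. Gimap7 rose on activation by 0.79 (SE 0.10, limma adjusted p = 6.2e-05) and was lower with TRAIL than without it by a log2 fold change of -1.17 (95% interval -1.40 to -0.94, limma adjusted p = 3.6e-06). Adding the TPM of the readthrough gene Gm28053 to Gimap7 left that value at -1.18. Against medium the log2 fold change was -0.38 (SE 0.10, limma adjusted p = 0.0193). That difference no longer passed without medium library 1 (adjusted p = 0.0661), medium library 3 (0.0639), TRAIL-treated library 1 (0.0505) or TRAIL-treated library 3 (0.0545). It did not pass either after median-of-ratios scaling, at -0.20 (adjusted p = 0.271), after quantile normalization, at -0.26 (0.119), or when genes of low TPM were kept (0.0635).

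Gimap5, which resides on lysosomes and related membranes and is required for the survival of peripheral T cells, followed the order of Gimap7 in its group means, with smaller differences. It read 97.7, 100.1 and 97.4 TPM in medium, 114, 122 and 119.5 TPM in activated cells and 97.2, 85.6 and 78.8 TPM with TRAIL. TRAIL-treated library 1 lay just under the lowest medium library, and no groups overlapped. Gimap5 rose on activation by 0.27 (SE 0.09, limma adjusted p = 0.0274), a difference that no longer passed without medium library 1 (adjusted p = 0.0631), medium library 3 (0.077), activated library 2 (0.0795) or activated library 3 (0.0735). It was lower with TRAIL than in activated cells, with a log2 fold change of -0.44 (SE 0.09, limma adjusted p = 1.8e-03). Against medium the log2 fold change was -0.18 (95% interval -0.39 to 0.03, limma adjusted p = 0.171), and its sign turned under median-of-ratios scaling, at 0.0044, whereas it passed with centring on T cell markers (-0.25, adjusted p = 0.0263). Adding the TPM of Gm28053 gave -0.28 (adjusted p = 0.0625).

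Gimap8 differs from the other members in having 3 G domains in 1 protein. It read 387, 383 and 369 TPM in medium, 163, 209 and 197 TPM in activated cells and 299, 267 and 232 TPM with TRAIL. The TRAIL-treated libraries lay between the other groups, without overlap. On activation Gimap8 fell with a log2 fold change of -1.004 (95% interval -1.27 to -0.74, limma adjusted p = 3.5e-05), the only member called in this comparison. This value sits at the fold threshold, and the log2 fold change was under 1 in size without medium library 1 (-0.99), medium library 2 (-0.998) or activated library 1 (-0.90). It was also under 1 after median-of-ratios scaling (-0.85), with centring on T cell markers (-0.90) and with a pseudocount of 5 TPM (-0.99), so the call was lost in all these cases, while the adjusted p passed each time. With TRAIL the level was higher than in activated cells by 0.49 (SE 0.12, limma adjusted p = 4.6e-03), and lower than in medium with a log2 fold change of -0.52 (SE 0.12, adjusted p = 9.6e-03), which did not pass when genes of low TPM were kept (adjusted p = 0.0572).

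Gimap4, known for its part in T cell apoptosis and in cytokine secretion, fell on activation and read close to the activated level with TRAIL. It read 976, 848 and 939 TPM in medium, 646, 672 and 667 TPM in activated cells and 699, 666 and 673 TPM with TRAIL. The activated and TRAIL-treated libraries overlapped, and both groups lay below all medium libraries. The log2 fold change was -0.47 (SE 0.09, limma adjusted p = 6.8e-04) on activation and -0.44 (SE 0.09, adjusted p = 4.5e-03) for TRAIL-treated against medium cells. Between TRAIL-treated and activated cells it was 0.04 (95% interval -0.15 to 0.23, limma adjusted p = 0.716), and -0.14 when libraries were centred on T cell markers. The difference from medium with TRAIL did not pass under median-of-ratios scaling, at -0.25 (adjusted p = 0.101).

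Gimap3, a mitochondrial relative of Gimap5, varied most of all members between the TRAIL-treated libraries. It read 661, 748 and 653 TPM in medium, 562, 600.0 and 574 TPM in activated cells and 578, 512 and 417 TPM with TRAIL. All medium libraries lay above all others, whereas TRAIL-treated library 1 fell inside the activated range. The log2 fold change of -0.25 on activation (95% interval -0.52 to 0.03, limma adjusted p = 0.0988) and that of -0.22 for TRAIL-treated against activated cells (-0.49 to 0.06, adjusted p = 0.143) did not pass. Each passed under 2 alternatives. The first did after quantile normalization (-0.52, limma adjusted p = 0.00685) and without TRAIL-treated library 3 (adjusted p = 0.042), and the second with centring on T cell markers (-0.39, adjusted p = 0.0069) and without TRAIL-treated library 1 (-0.32, adjusted p = 0.0424). Against medium, Gimap3 was lower with TRAIL, with a log2 fold change of -0.46 (SE 0.12, limma adjusted p = 0.0173). This was lost without medium library 2 (adjusted p = 0.0517) or TRAIL-treated library 3 (0.0522), after median-of-ratios scaling (-0.28, 0.0719) and when genes of low TPM were kept (0.091).

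Gimap1, which mature T and B cells need to survive, did not pass in any comparison on the TPM as deposited. It read 256, 272 and 262 TPM in medium, 255, 251 and 232 TPM in activated cells and 244, 237 and 219 TPM with TRAIL. Medium libraries were the highest by a narrow margin, and the activated and TRAIL-treated libraries overlapped. The log2 fold change was -0.10 (95% interval -0.29 to 0.09, limma adjusted p = 0.310) on activation and -0.07 (-0.26 to 0.11, adjusted p = 0.453) for TRAIL-treated against activated cells. It was -0.18 (-0.36 to 0.01, limma adjusted p = 0.137) for TRAIL-treated against medium cells. The sign turned under median-of-ratios scaling in both comparisons with medium, and under quantile normalization in the comparison of TRAIL-treated with activated cells. Each comparison passed under 1 alternative, activation after quantile normalization (-0.27, limma adjusted p = 0.0107) and, with centring on T cell markers, TRAIL-treated against activated (-0.25, adjusted p = 0.0137) and against medium cells (-0.25, adjusted p = 0.0237). The antisense gene Gimap1os, whose reads overlap, stood at 49.8 ± 0.97, 53.7 ± 1.76 and 41.9 ± 2.14 TPM in the 3 groups, and adding its TPM to Gimap1 left all 3 comparisons short of the threshold.

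The first comparison asked what TCR activation does to the family. Of the 8 members, 2 rose (Gimap5 and Gimap7), 4 fell (Gimap4, Gimap6, Gimap8 and Gimap9) and 2 did not pass. Over all genes tested, 68.7% passed, 28.8% as higher and 40% as lower. One member, Gimap8, was called, compared with 31.9% of all genes, 12.4% as higher and 19.5% as lower. The median log2 fold change of the members was -0.33, beside -0.15 over all genes tested, and the median size was 0.45, beside 0.66. The groups did not overlap for any of the 8 members, against 72.6% of all genes.

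The second comparison set cells given the Abs with TRAIL beside cells given the Abs alone. Gimap6, Gimap8 and Gimap9 were higher with TRAIL, Gimap5 and Gimap7 were lower and 3 members did not pass. This comparison and the one on activation share the activated libraries. Over all genes tested 67.1% passed, 33.5% in each direction. Gimap6 and Gimap7 were called, compared with 30.9% of all genes, 16.6% as higher and 14.3% as lower. Under quantile normalization the 2 called were Gimap6 and Gimap9, and Gimap7 stood at -0.95. The median log2 fold change of the members was -0.02, beside 0.01 over all genes, and the median size was 0.47, beside 0.65. Groups did not overlap for 5 of 8 members, beside 70.4% of all genes.

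The third comparison set TRAIL-treated cells beside cells in medium. Gimap6 and Gimap9 were higher, Gimap3, Gimap4, Gimap7 and Gimap8 were lower and 2 did not pass, while 32.6% of all genes passed, 8.03% as higher and 24.6% as lower. Members called by limma numbered 0 (6 had an unadjusted p under 0.05), compared with 4.62% of all genes, 2.49% as higher and 2.13% as lower. The median log2 fold change was -0.28, beside -0.18 over all genes, and the median size was 0.44, beside 0.29. The groups did not overlap for 8 of 8 members, beside 50.6% of all genes. Only 3 members passed under median-of-ratios scaling (Gimap6, Gimap8 and Gimap9), and 3 when genes of low TPM were kept (Gimap4, Gimap6 and Gimap9).

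**Figure D2:**
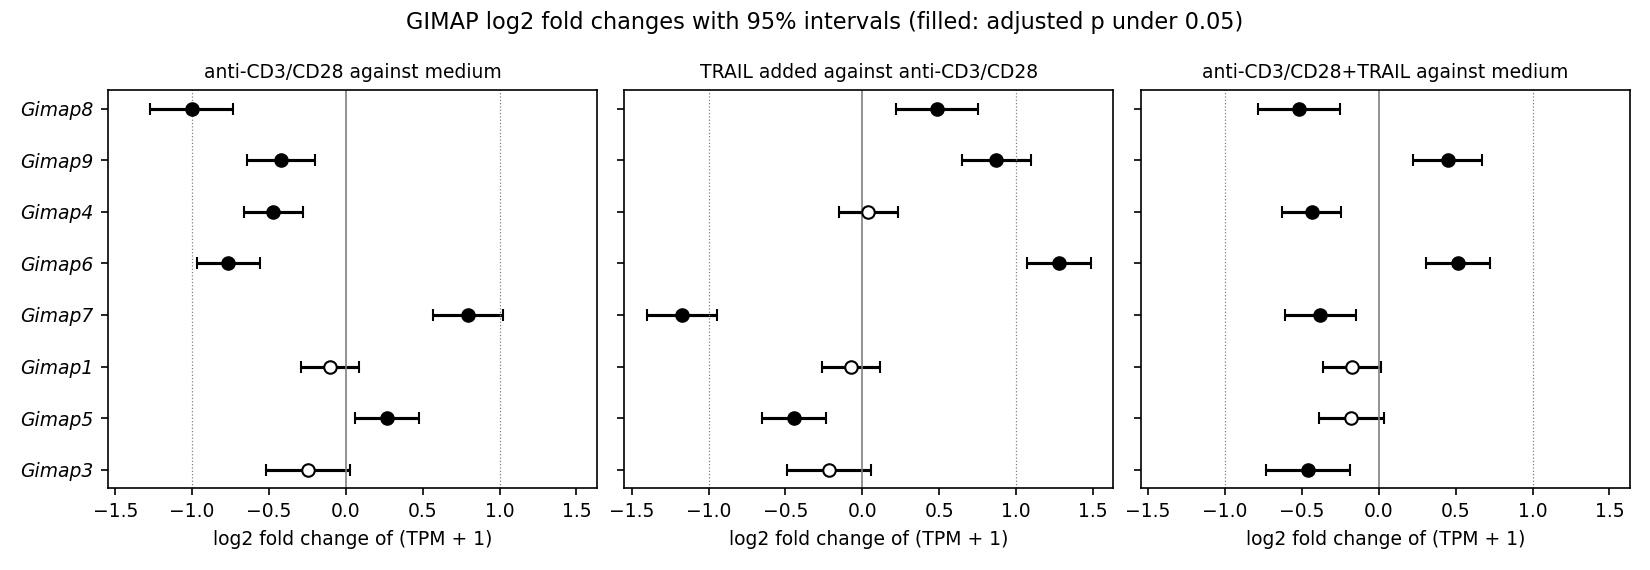
Log2 fold changes of (TPM + 1) on the horizontal axis with 95% intervals from limma, for the 8 members in chromosomal order and in the 3 comparisons (panels). Filled points passed at an adjusted p under 0.05 and dotted lines mark the fold threshold of 1. Gimap8 sits on the threshold in activated cells against medium. Gimap6 and Gimap7 lie beyond it on opposite sides for TRAIL-treated against activated cells, and no member reaches it for TRAIL-treated against medium cells.

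The place of the TRAIL-treated libraries between the other groups was read on a scale. Its 0 is the mean log2 level in medium and its 1 that in activated cells. The SD given here covers the 3 TRAIL-treated libraries alone and leaves out the error of the medium and activated means. Positions rest on the TPM as deposited and were not recomputed under other scalings, under which the fold changes behind them differ. For the members that passed on activation, Gimap4 stood at 0.92 ± 0.078, near the activated level, and Gimap8 at 0.52 ± 0.18, between the groups. The other 4 lay beyond medium, Gimap6 at -0.68 ± 0.089, Gimap7 at -0.48 ± 0.046, Gimap5 at -0.67 ± 0.57 and Gimap9 at -1.06 ± 0.34. All 3 libraries with TRAIL were outside the range of both other groups in each case, above it for Gimap6 and Gimap9 and below it for Gimap7 and Gimap5. Gimap5 was the least certain, with its TRAIL-treated library 1 at -0.066, and its difference from medium did not pass. That of Gimap7 passed in 14 of 21 alternatives and that of Gimap6 in 19 of 20.

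Neighbours in the cluster did not always move together. Gimap6 and Gimap7 are adjacent, transcribed away from each other, with 10395 bp between them, and they differed in sign in all 3 comparisons. Gimap9 and Gimap4 are adjacent on the same strand, and with TRAIL against activated cells the first was higher by 0.87 while the second gave 0.04. Gimap6 and Gimap3, the minus-strand members, stood at 1.28 and -0.22 in that comparison.

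**Figure D3:**
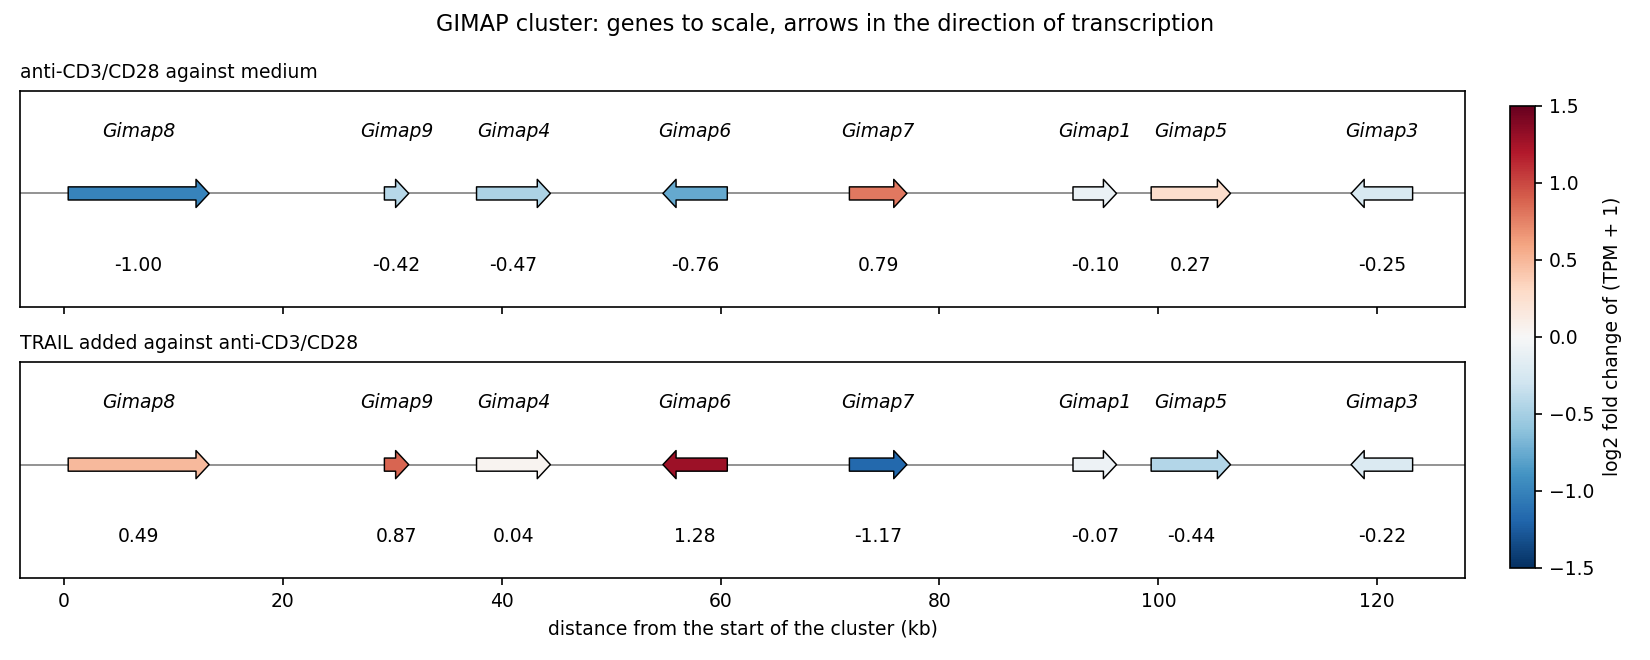
Map of the cluster with the members drawn to scale as arrows in the direction of transcription, against distance in kb from the start of Gimap8, coloured and labelled by log2 fold change of (TPM + 1). In the upper panel (activated against medium) Gimap7 and Gimap5 are positive and all other members negative, with Gimap1 changing sign under median-of-ratios scaling. In the lower panel (TRAIL added) Gimap6 at 1.28 stands next to Gimap7 at -1.17, and the sign of Gimap1 and Gimap4 depends on the scaling.

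The family as a whole took a smaller part of the transcriptome in activated cells, and the shares of its members were not the same in each group. Summed over the 8 members, the level was 3719 to 3953 TPM in medium, 2708 to 2846 TPM in activated cells and 3736 to 3879 TPM with TRAIL. The medium and TRAIL-treated ranges overlapped, although 6 members differed between these groups. Each member was then expressed as its share of the summed GIMAP level in a library, a quantity that a single scaling factor per library does not change, although quantile normalization would. Shares add up to 100%, so a larger share of one member lowers the sum of the others whether or not their TPM differ. Gimap6 took 30.1 ± 1.05% in medium, 24.2 ± 0.81% in activated cells and 43.3 ± 2.36% with TRAIL. Gimap7 took 2.31 ± 0.23%, 5.47 ± 0.31% and 1.77 ± 0.077%, and Gimap5 2.58 ± 0.11%, 4.24 ± 0.030% and 2.30 ± 0.21%. Gimap3 held 18.0 ± 1.82%, 20.7 ± 0.41% and 13.2 ± 1.97%, although its TPM did not pass between activated and TRAIL-treated cells. Gimap4 held 24.1 ± 1.15% and 23.7 ± 0.16% in the first groups and 17.9 ± 0.11% with TRAIL, where its TPM gave a log2 fold change of 0.04 against activated cells (limma adjusted p = 0.716). Gimap9 held 6.03 ± 0.29%, 6.14 ± 0.36% and 8.31 ± 0.94%. The exact two-sided permutation test on shares cannot go below p = 0.1 for 3 libraries against 3, so no test could pass. Of the 24 tests of 8 members in 3 comparisons, 20 reached that smallest value (0.12 after Benjamini-Hochberg adjustment over the 24). The 4 that did not were Gimap4 and Gimap9 on activation, Gimap8 for TRAIL-treated against activated cells and Gimap5 for TRAIL-treated against medium cells. The smallest value means only that the groups compared did not overlap. In TPM, 72.6, 70.4 and 50.6% of all genes did not overlap in these comparisons.

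**Figure D4:**
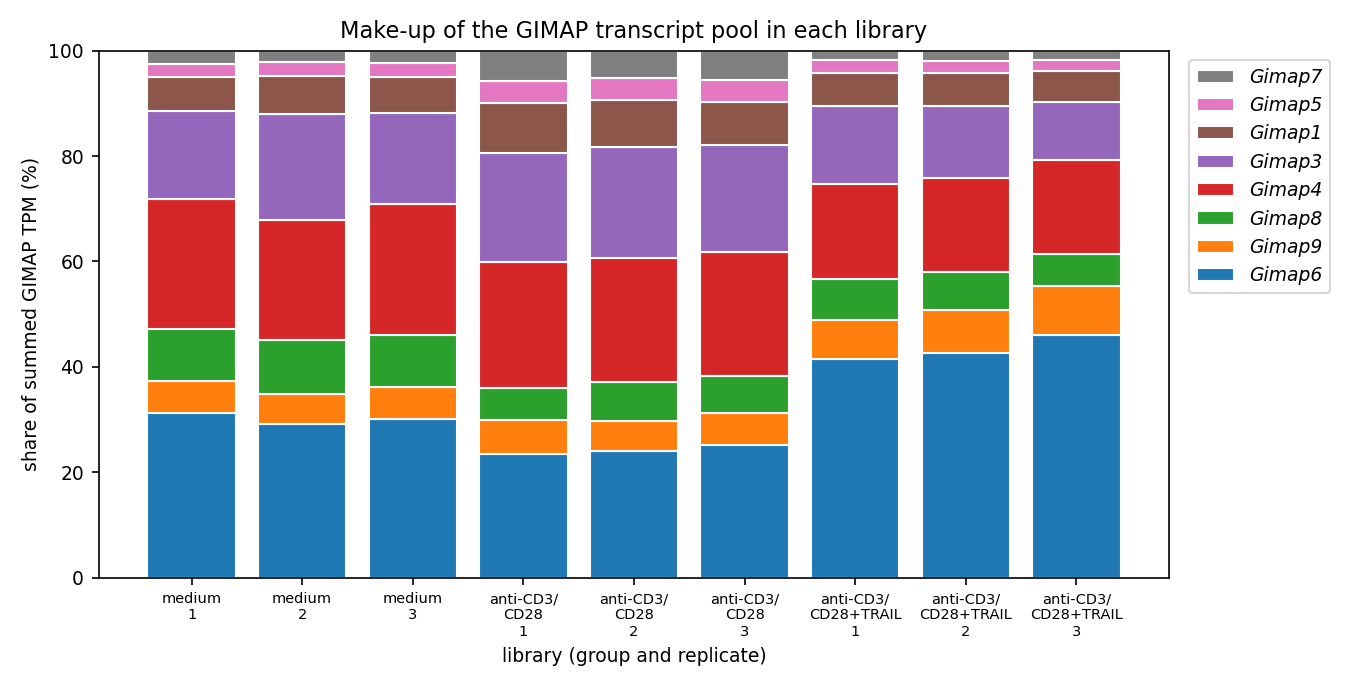
Share of the summed GIMAP TPM (vertical axis, percent) taken by each member (colours) in each of the 9 libraries. Gimap6 takes 23.5 to 25.1% in the activated libraries and 41.5 to 46.0% in the TRAIL-treated libraries, while Gimap7 takes 5.14 to 5.75% and 1.70 to 1.85%.

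The ratio of Gimap6 to Gimap7 within a library, which a single factor per library also leaves unchanged, was 12.4, 14.1 and 12.8 in medium, 4.08, 4.67 and 4.52 in activated cells and 24.4, 23.0 and 26.0 with TRAIL. The 3 groups were far apart on this ratio. The ratio of Gimap9 to Gimap4 was 0.249 to 0.252 in medium and 0.244 to 0.271 in activated cells, with overlap, and 0.411 to 0.520 with TRAIL.

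Because TPM values are shares of 1 total, the members' fold changes also depend on how libraries are scaled. Median-of-ratios scaling and centring apply 1 factor to a whole library, whereas quantile normalization moves members by unequal amounts. With median-of-ratios scaling, the all-gene median of the log2 fold changes shifted by 0.14 on activation, by 0.02 for TRAIL-treated against activated cells and by 0.16 for TRAIL-treated against medium cells. Quantile normalization shifted it by 0.19, -0.06 and 0.14, and centring on 13 T cell markers by 0.10, -0.18 and -0.08. Under all 3 scalings Gimap6, Gimap8 and Gimap9 were higher and Gimap5 and Gimap7 lower with TRAIL than in activated cells, each at an adjusted p under 0.05. In that comparison Gimap6 ranged from 1.10 to 1.31 and Gimap7 from -1.35 to -0.95 over the 3 scalings. The signs that turned were those of Gimap1 in each comparison, Gimap4 for TRAIL-treated against activated cells and Gimap5 for TRAIL-treated against medium cells.

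**Figure D5:**
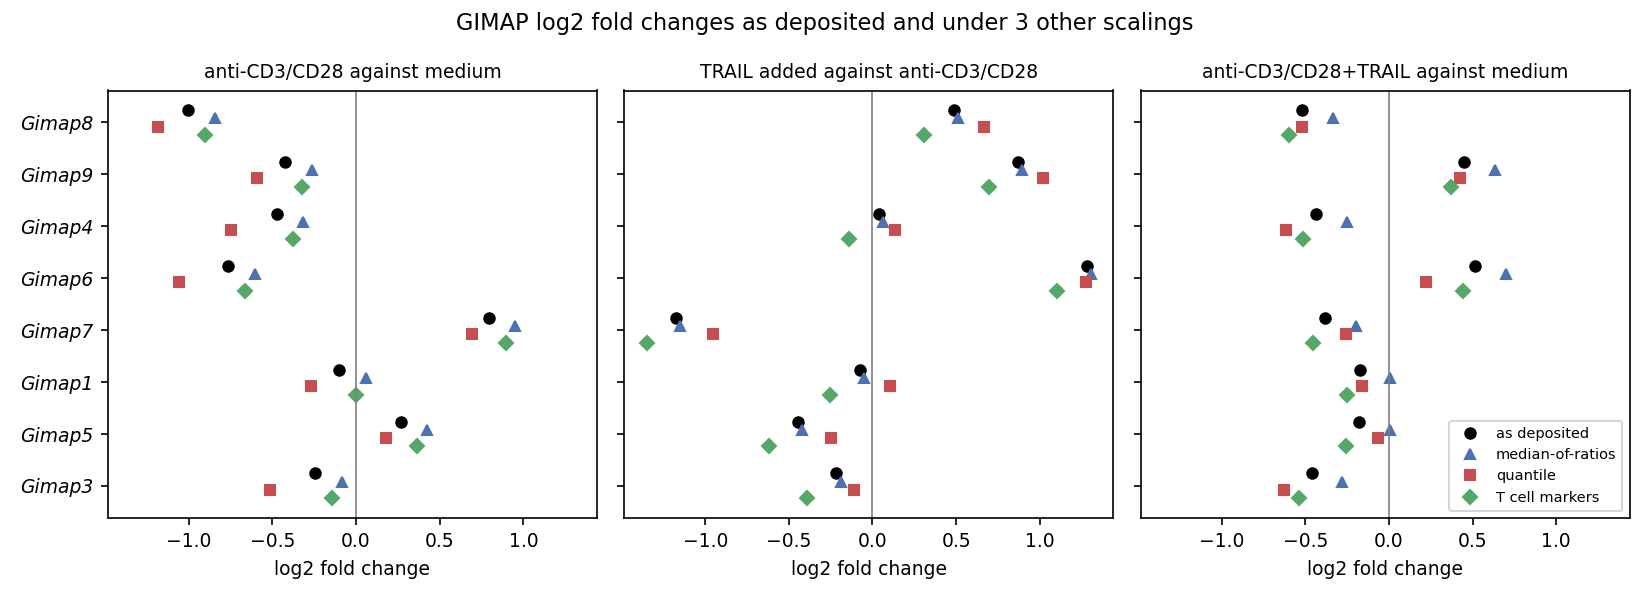
Log2 fold change (horizontal axis) of each member on the TPM as deposited (circles) and after median-of-ratios scaling (triangles), quantile normalization (squares) or centring on T cell markers (diamonds), in the 3 comparisons (panels). The symbols of Gimap6, Gimap8, Gimap9, Gimap7 and Gimap3 stay on 1 side of 0 in every panel, and those of Gimap1 straddle or touch 0.

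The libraries also differed in their content of other cells, as far as markers show it. All 13 T cell markers reached 1 TPM in each group. Their summed level was 6071 to 6211 TPM in medium, 5632 to 5903 TPM in activated cells and 5995 to 6439 TPM with TRAIL. Within that sum 2 markers rose and 3 fell on activation, and 6 were higher and 2 lower with TRAIL against activated cells. Over all genes 28.8% rose and 40% fell on activation, and 33.5% passed in each direction with TRAIL. The summed level of 10 B cell markers was 6493 to 7158, 740.2 to 813 and 3189 to 3689 TPM, all 10 being called lower on activation and 9 of 10 called higher with TRAIL against activated cells, beside 19.5% and 16.6% of all genes. The 12 myeloid markers summed to 2163 to 2411, 62.2 to 75.7 and 1578 to 1807 TPM, the 6 erythroid markers to 2081 to 2534, 24.8 to 39.6 and 610.4 to 660.4 TPM, and the 6 NK cell markers to 180.1 to 231, 35.3 to 41.6 and 68.6 to 76.1 TPM. Of these lists, 2 myeloid and 2 erythroid genes stayed under 1 TPM in activated cells. The 2 CD8 T cell markers summed to 110.0 to 118, 94.2 to 105 and 46.9 to 49.4 TPM. The 8 endothelial markers summed to 216 to 230.4, 58.4 to 77.6 and 181 to 206 TPM, and 4, 6 and 4 of them were under 1 TPM. Pecam1, which leukocytes also express, made up most of that sum, at 209 ± 5.91, 61.3 ± 10.7 and 184 ± 12.9 TPM, whereas Egfl7 went the other way, at 0.84 ± 0.092, 7.47 ± 1.13 and 1.005 ± 0.25 TPM. These sums were lower in activated cells, and all but the CD8 sum were higher again with TRAIL. Gimap6, Gimap8 and Gimap9 shared that order, whereas Gimap4 fell on activation (-0.47) and gave 0.04 with TRAIL against activated cells. Gimap5 and Gimap7 went the other way in both comparisons, and Gimap1 and Gimap3 passed in neither. With TRAIL all sums but that of the T cell markers stayed below medium, whereas Gimap6 and Gimap9 read above it. B cells are known to express GIMAP genes too, and the part of other cells in the GIMAP values was not tested.

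Of genes whose proteins act with GIMAP proteins, 5 were followed, with a median log2 fold change of 0.90 on activation, -1.16 for TRAIL-treated against activated cells and -0.13 for TRAIL-treated against medium cells. The list held Bcl2 and Bcl2l1, which restrain apoptosis, Bax, which executes it, Gabarapl2, the autophagy partner of GIMAP6, and Gsk3b, a kinase that GIMAP5 regulates in T cells. On activation 3 of the 5 rose and 1 fell, with TRAIL against activated cells 1 was higher and 3 were lower, and 0 passed by limma for TRAIL-treated against medium cells, where Bax alone had an unadjusted p under 0.05 (log2 fold change -0.26). Over all genes 68.7%, 67.1% and 32.6% passed in these comparisons, and with 5 genes a count of 4 stands little above the first 2 of these shares. Bcl2l1 was at 17.5 ± 2.34 TPM in medium, 95.9 ± 9.52 TPM in activated cells and 15.1 ± 1.28 TPM with TRAIL. Its log2 fold change was 2.39 (SE 0.12, limma adjusted p = 6.7e-08) on activation and -2.59 (SE 0.12, adjusted p = 4.5e-08) with TRAIL. Bcl2 read 57.2 ± 6.65, 121.7 ± 27.8 and 52.6 ± 9.24 TPM, and Bax 85.9 ± 7.95, 162 ± 20.2 and 71.4 ± 2.92 TPM. Gsk3b went the other way, at 35.2 ± 4.53, 25.3 ± 5.78 and 35.2 ± 3.53 TPM, and passed both on activation (limma adjusted p = 0.028) and with TRAIL (adjusted p = 0.0273). Gabarapl2 read 33.6 ± 4.48, 31.0 ± 7.58 and 33.3 ± 0.98 TPM and did not pass in any comparison, with adjusted p from 0.493 to 0.982, beside the differences of its partner Gimap6.

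Of 8 neighbours, 7 around the cluster and the antisense gene Gimap1os within it, Rarres2 and Aoc1 did not reach 1 TPM in 3 libraries, and 6 were tested. On activation 1 rose and 3 fell, with TRAIL against activated cells 2 were higher and 2 lower, and 5 were lower for TRAIL-treated against medium cells. Gimap1os was among the lower genes in the last 2 comparisons (limma adjusted p = 0.0454 against medium). The numbers that passed in the first 2 comparisons, 4 of 6 each, were close to the 68.7% and 67.1% of all genes, and 32.6% of all genes passed in the last. Repin1, a zinc finger gene on the Gimap8 side, shared the order of Gimap7. It was at 4.21 ± 0.53 TPM in medium, 8.73 ± 0.73 TPM in activated cells and 2.34 ± 0.14 TPM with TRAIL, with a log2 fold change of -1.54 for the last step (SE 0.12, limma adjusted p = 1.7e-06). Tmem176a and Tmem176b, a pair of membrane protein genes beyond Gimap3, fell on activation with log2 fold changes of -1.39 and -1.27 and were higher with TRAIL by 0.86 and 0.84. Lrrc61 read 24.3 ± 3.08, 14.6 ± 1.96 and 15.6 ± 3.59 TPM and fell on activation, with a log2 fold change of -0.70 (SE 0.17, limma adjusted p = 4.2e-03). Zfp775 read 3.56 ± 0.62, 3.67 ± 0.29 and 3.10 ± 0.66 TPM and did not pass in any comparison. Gm28053 read 21.6 ± 3.30, 27.96 ± 4.81 and 11.8 ± 3.47 TPM, and its log2 fold change with TRAIL against activated cells was -1.19 (SE 0.20, limma adjusted p = 3.6e-04), beside -1.17 for Gimap7, whose start lies close to its own.

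Of 17 interferon-inducible GTPases (guanylate-binding proteins, IRG proteins and Mx proteins), 12 rose and 3 fell on activation, 3 were higher and 13 lower with TRAIL against activated cells, and 0 were higher and 11 lower for TRAIL-treated against medium cells. Their median log2 fold changes were 0.86, -1.31 and -0.48. Of 18 genes of resting T cells, 2 rose and 14 fell on activation, 13 were higher and 2 lower with TRAIL, and 6 were higher and 2 lower for TRAIL-treated against medium cells, with medians of -1.17, 1.197 and 0.04. Beside these counts, 28.8% of all genes rose and 40% fell on activation, 33.5% passed in each direction with TRAIL against activated cells, and 8.03% were higher and 24.6% lower for TRAIL-treated against medium cells. The GIMAP medians of -0.33, -0.02 and -0.28 stood closer to 0 than those of either list in the first 2 comparisons, with members on both sides of 0.

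Among the 9580 genes outside the family that averaged 10 TPM or more, those most like its mean level were found. The measure was the Pearson correlation, over the 9 libraries, of log2(TPM + 1) with the mean over the 8 members. The libraries fall into 3 groups, so this is a measure of likeness between group patterns, with no test. The family mean was 8.34 to 8.42 in medium, 8.09 to 8.15 in activated cells and 8.17 to 8.29 with TRAIL. That order, with the TRAIL-treated libraries in the middle, is not the order of Gimap6, Gimap9, Gimap7 or Gimap5. These moved against each other, at r = -0.957 for Gimap6 with Gimap7 and -0.966 for Gimap9 with Gimap5. The genes named next are therefore like the mean and not like each member. The closest genes were Zfp141 (r = 0.991), Pcmtd2 (0.987), Galnt1 (0.985), Zfp157 (0.984) and Ice2 (0.983). Pcmtd2, for instance, averaged 64.5, 30.1 and 42.4 TPM in the 3 groups. The most opposed were Ier3 (-0.979), an early response gene that averaged 5.72, 22.5 and 13.5 TPM, Cltb (-0.967), which codes for a clathrin light chain, and Gm3788 (-0.966).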

How the data were processed

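RNA-seq of 9 libraries of CD4+ T cells was analysed from the table of TPM values deposited by the authors. Per the study's methods, 1 µg of total RNA per library was prepared with a SureSelect mRNA kit and sequenced as 150 bp paired-end reads, which the authors trimmed and aligned to mouse GRCm38. The submitters' processing notes name Trimmomatic 0.36, HISAT2 2.1.0, SAMtools 1.2, StringTie 2.1.2 and DESeq2, and a human build, whereas 99.3% of the 55141 genes found in GENCODE M21 have their GRCm38 locus in the table. The program that made the TPM values and the annotation release were not given in the sources used here. Each library sums to 1000000, and 57.6 to 60.1% of genes are listed at 0.0001 TPM.

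Groups came from the sample titles. Tests used limma 3.58.1 under R 4.3.3 (lmFit, then eBayes with a mean-variance trend, two-sided, no replicate block) on log2(TPM + 1), adjusted over the 15536 genes with 3 or more libraries at 1 TPM or above. On this scale fold changes of low genes are understated. Shares were compared by exact permutation. The test was checked on simulated data. Alternatives changed the pseudocount, filter, scaling, variance trend, libraries in the fit, block and thresholds and left out each library. Restriction to protein-coding genes and the addition of the Gm28053 or Gimap1os values were chosen after seeing the data. Same-numbered libraries of different groups deviated together in 3 of 9 pairs (correlations of -0.306 to 0.295, threshold 0.1), so the numbers were not taken as pairing. Named genes were the members, all genes of the partner and neighbour lists, the 4 members of highest mean TPM of each other list where a result turned on them, and the 5 most alike and 3 most opposed genes. Gm28053 was added after its overlap was seen, and Il2ra, Tnfrsf9 and Egfl7 after their values were seen. The members and lists were chosen with earlier results of these data known. Sequences were copied from RefSeq promoter windows on GRCm38.p6, matched by symbol for all 8 members.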

Additional observations from a re-analysis of the deposited data

How the results depend on the processing

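Each member's 3 log2 fold changes were recomputed under 20 to 22 alternatives (those that add an overlapping gene only for Gimap1, Gimap5 and Gimap7), 492 values in all, of which 460 kept their direction and their side of the threshold, 19 no longer passed, 8 newly passed and 5 turned sign. The values that turned sign were Gimap1 on activation (0.0572) and for TRAIL-treated against medium cells (0.0077) and Gimap5 for TRAIL-treated against medium cells (0.0044), all by median-of-ratios scaling, Gimap1 for TRAIL-treated against activated cells under quantile normalization (0.11), and Gimap4 for the same groups when centred on T cell markers (-0.14). The single member called on activation became 0 with a pseudocount of 5 TPM, after median-of-ratios scaling or after T cell centring, 2 with quantile normalization and 0 to 1 when a library was left out. With no fold threshold the calls became 6 on activation, 5 for TRAIL-treated against activated cells and 6 for TRAIL-treated against medium cells. The 6 members that passed in the last comparison became 3 without the filter and 3 under median-of-ratios scaling, and the cause was not tested. Adding the replicate number as a block left 1, 2 and 0 members called and 6, 5 and 6 passed, and no call on a member changed. Over all genes, the calls of 4959, 4800 and 718 became 2946, 2883 and 332 with a pseudocount of 5 TPM, and 10678, 10420 and 5063 with no fold threshold. The last became 1167 with a pseudocount of 0.1 TPM and 473 with protein-coding genes alone. The share of called genes that were higher was 38.8, 53.8 and 53.9%, and 47.4, 55.4 and 73.8% after median-of-ratios scaling, 52.1, 48.6 and 70.6% after quantile normalization and 45.4, 41.0 and 41.9% with T cell centring. The share tests at their smallest p numbered 20 of 24, and 18 when each level was set against the median member. The number of 3 libraries per group limits the precision of each fold change, and the sequencing depth behind the TPM is unknown.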
